A study of Homo sapiens with 12 samples.

Results

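The endoplasmic reticulum (ER) is where secreted and membrane proteins enter the secretory pathway, fold and are checked. In A549 cells, a line established from a human lung adenocarcinoma, 41 genes of this machinery were followed: chaperones of the ER lumen, enzymes of disulfide exchange, the lectin cycle, the translocation channel, ER-associated degradation (ERAD), and the sensors of the unfolded protein response with XBP1. They were chosen by gene symbol, and each of the 41 was found once among the 40605 rows of the merged count table. Of these, 40 passed a filter on low counts and were among the 13047 genes tested. The exception was DERL3, a derlin of ERAD, which lay between 0 and 0.451 CPM, the usual unit of counts scaled to the library total.

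New chains pass into the ER through the SEC61 channel, where BiP (encoded by HSPA5), GRP94 (HSP90B1), the calnexin and calreticulin lectins and protein disulfide isomerases help them fold. Chains that fail to fold are pulled back to the cytosol by the SYVN1 and SEL1L ubiquitin ligase complex and degraded. When unfolded chains build up, the sensors IRE1 (ERN1), PERK (EIF2AK3) and ATF6 respond. IRE1 splices the XBP1 mRNA, and the spliced form encodes a transcription factor that acts on chaperone, ERAD and translocation genes.

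All cells carried a tetracycline-inducible DYRK1B, a dual-specificity kinase, either wild type (WT) or with phenylalanine in place of tyrosine (Y273F). The titled groups were WT doxycycline, WT control, Y273F doxycycline and Y273F control, with 3 libraries each, and the doxycycline groups were kept for 7 days with 2 µg/ml of the drug. The series text describes separate cell populations grown in parallel, and a single batch label covers the 12 libraries. A line lacking the transgene was not analysed here, so doxycycline and DYRK1B effects cannot be told apart, and the labels do not say whether each line is 1 clone. Libraries are also numbered 1 to 12 in the labels, and the genes are described both by title and by sets of library numbers. Set 2/6/10 is WT control 2, WT doxycycline 3 and Y273F doxycycline 1. Set 1/5/9 is WT control 1, WT doxycycline 2 and Y273F control 3. Set 4/8/12 is WT doxycycline 1, Y273F control 2 and Y273F doxycycline 3. Set 3/7/11 is WT control 3, Y273F control 1 and Y273F doxycycline 2. The labels give these sets no condition, and they were proposed with results of these data known, so differences between sets are a description without a test. The values of each set are given below in the order in which its libraries are listed here.

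DYRK1B levels did not follow the titles in every library. The gene had 28.6, 12.6 and 20.0 CPM in the libraries of set 4/8/12, one of which is titled Y273F control, and 2.63 to 7.79 CPM in the other 9, among them 4 libraries titled doxycycline. Every titled comparison below is therefore a comparison of libraries as labelled. Total counts were 2.78e+06 to 2.20e+07 per library, and 3 counts corresponded to 0.134 to 1.07 CPM. Depth also differed by set, with 2.78e+06 to 7.17e+06 counts in set 2/6/10 and 8.73e+06 to 2.20e+07 in set 1/5/9. A list of A549 epithelial markers had 8 of 10 genes tested, with KRT18 at 2304 to 8537 CPM and KRT8 at 679 to 2468 CPM, while the lung lineage genes NKX2-1 and SFTPC stayed below 1 CPM. The endothelial genes VWF and KDR and the T cell gene CD3E had no counts, and the endothelial PECAM1 and CDH5 stayed below 1 CPM. Of the other haematopoietic markers, PTPRC stayed below 1 CPM and CD68 reached 1.33 CPM. CD14 and HBB had counts in all 12 libraries, at 4.98 to 10.8 CPM and 0.663 to 3.26 CPM.

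The level of the 40 genes as a group followed the library sets closely. For each library it was taken as the mean of log2 CPM minus each gene's own mean over the 12 libraries. It was -0.117, -0.125 and -0.159 in set 2/6/10 and 0.186, 0.186 and 0.177 in set 1/5/9. It was -0.0845, -0.0961 and -0.134 in set 4/8/12 and 0.0508, 0.0494 and 0.0656 in set 3/7/11. Sets 2/6/10 and 4/8/12 were thus low and the other pair high, and no library of either low set reached a library of either high set. Within each titled group the libraries lay on both sides of 0, with a pooled SD of 0.146, against 0.0177 within the sets. The titled groups held unequal mixes of the sets. Y273F control, without a library of set 2/6/10, ran from -0.0961 to 0.177. Y273F doxycycline, without a library of set 1/5/9, ran from -0.159 to 0.0656. Summed over the 41 genes, the CPM were 6233 to 6383 in set 2/6/10 against 7872 to 7910 in set 1/5/9. In bulk RNA, fewer cells that express a gene and less RNA per cell cannot be told apart.

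**Figure D1:**
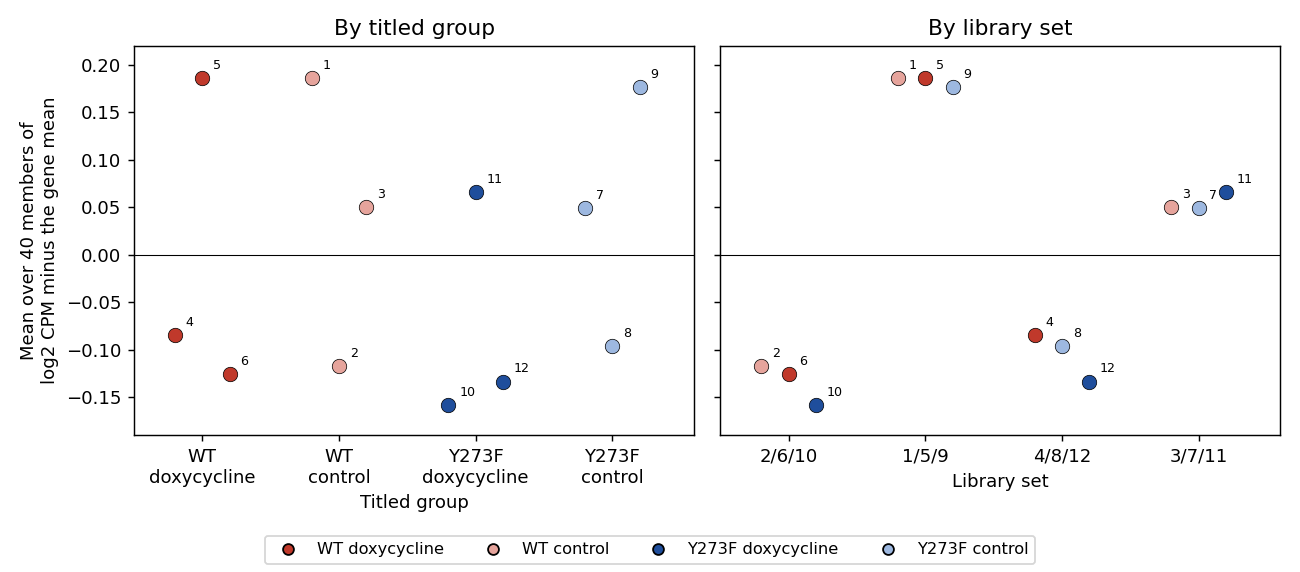
Level of the 40 tested genes in each library (y axis, mean log2 CPM minus the gene mean), by titled group (left) and by library set (right). Points are libraries, numbered as in the labels and coloured by title. Set 2/6/10 lies at -0.159 to -0.117 and set 1/5/9 at 0.177 to 0.186, while every titled group holds both positive and negative libraries.

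As titled, doxycycline gave no call among the 40 genes in either line. None passed an adjusted p under 0.05 in edgeR's quasi-likelihood test with Benjamini-Hochberg adjustment in any of the 4 comparisons, where the share of all genes called was 0%. DESeq2 and limma-voom also called none. For WT doxycycline against WT control, 27 of the 40 log2 fold changes were negative, with a median of -0.05 (all genes -0.00158) and a range of -0.47 to 0.19. None had an unadjusted p under 0.05, against 118 of all genes. For Y273F doxycycline against Y273F control, 32 were negative, with a median of -0.09 (all genes 0.01) and a range of -0.42 to 0.11, and 1 had an unadjusted p under 0.05, against 215 of all genes. With a term for library set in the model, the medians were -0.0136 for the WT line and -0.0149 for the Y273F line. The WT effect minus the Y273F effect had a median of 0.05 (all genes -0.02), with 1 gene under 0.05 against 161 of all genes. Y273F control against WT control gave 20 positive and 20 negative values, with 1 gene under 0.05 against 445 of all genes.

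The gene behind each of those single low p-values was EDEM3, a mannosidase-like protein that marks misfolded glycoproteins for ERAD. Its CPM were 37.3, 39.2 and 38.8 in WT doxycycline libraries 1 to 3, against 32.8, 30.1 and 38.3 in WT control. They were 30.03, 29.3 and 35.6 in Y273F doxycycline, against 38.3, 42.1 and 45.02 in Y273F control. The Y273F groups did not overlap and the WT groups did. Every comparison with a low p-value for EDEM3 uses the Y273F control libraries, so those p-values are not independent of each other. The log2 fold change was -0.40 (95% interval -0.69 to -0.11) for Y273F doxycycline against Y273F control, with an edgeR adjusted p of 0.990, and 0.18 (-0.11 to 0.47) for WT doxycycline against WT control. The difference of these effects was 0.58 (0.17 to 1.00), with an edgeR adjusted p of 1.000. Titled groups held 68.5% of the variance of EDEM3 over the 12 libraries and library sets 26.1%, the highest share by title among the 40 genes.

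Other members with the lowest p-values in these comparisons had intervals that include 0. ERN1 had a log2 fold change of -0.27 (-0.69 to 0.15) and SIL1, a nucleotide exchange factor for BiP, 0.19 (-0.12 to 0.51) for WT doxycycline against WT control. EIF2AK3 had -0.42 (-0.90 to 0.05) and SEC61B, the small beta subunit of the channel, -0.22 (-0.50 to 0.06) for Y273F doxycycline against Y273F control. For the difference of the effects, the glucosyltransferase and folding sensor gene UGGT1 had 0.22 (-0.13 to 0.57) and the disulfide isomerase gene PDIA3 0.26 (-0.19 to 0.71). For Y273F control against WT control, EDEM2 had -0.32 (-0.80 to 0.16) and SEC61A1 -0.26 (-0.69 to 0.17). For XBP1, which differs most between library sets, the interval was -2.07 to 1.14 around a log2 fold change of -0.47 for WT doxycycline against WT control.

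**Figure D2:**
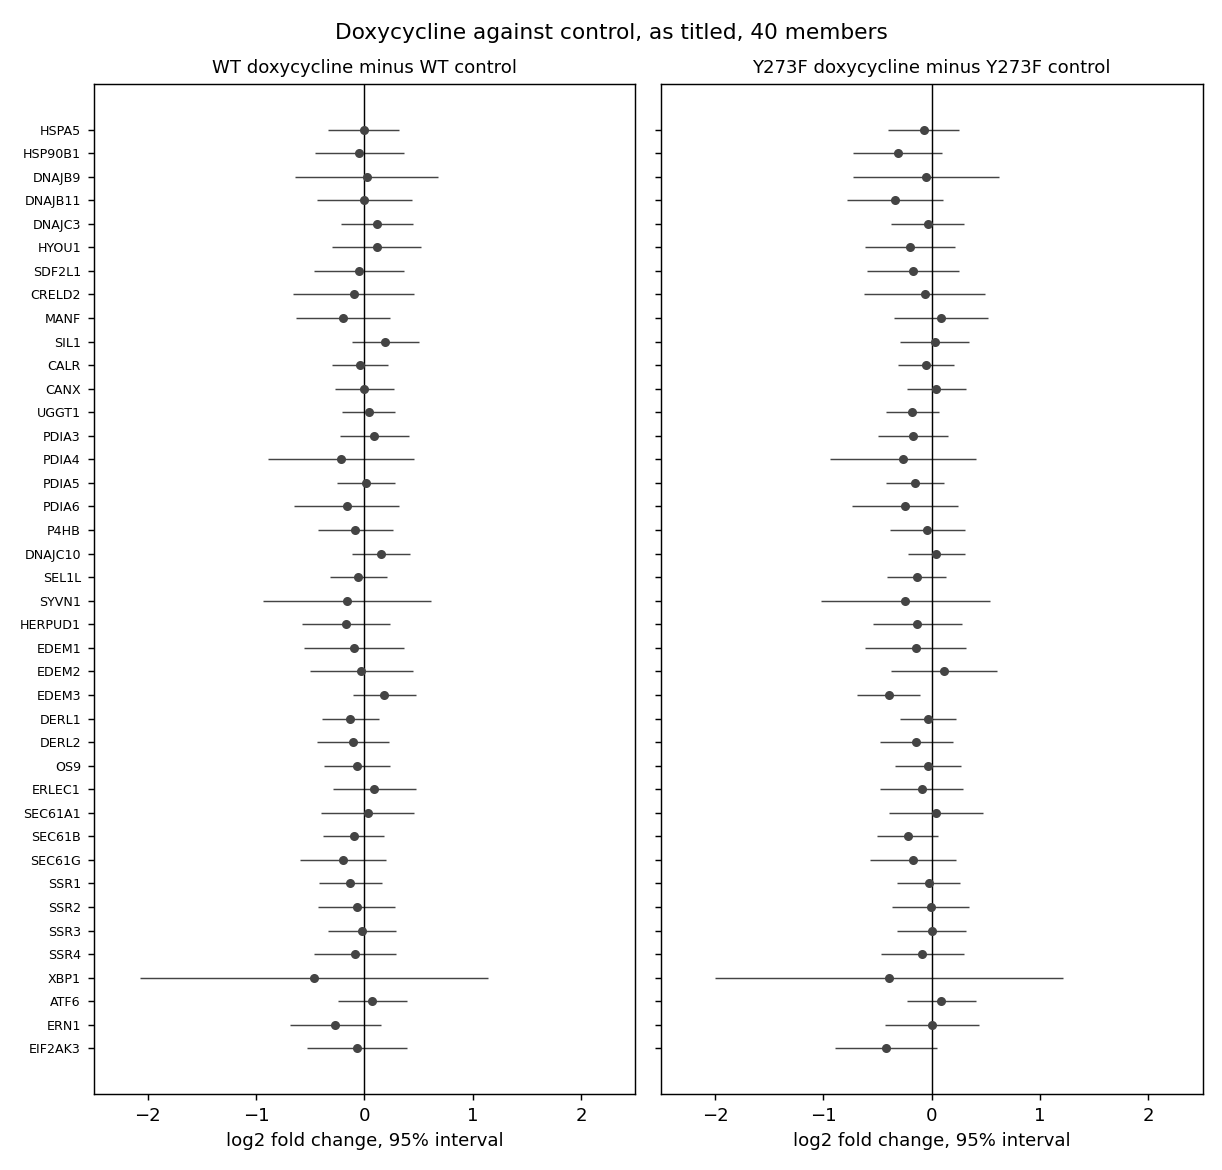
Log2 fold changes (x axis) of the 40 genes for doxycycline against control as titled, in the WT line (left) and the Y273F line (right). Points are edgeR estimates and bars are 95% intervals; that of EDEM3 in the Y273F line, -0.69 to -0.11, lies below 0, and no gene passed the adjusted threshold.

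Per gene, the library sets held a median of 68.8% of the variance of log2 CPM over the 12 libraries, and the titled groups 21.1%. Any grouping of the 12 libraries holds some share without an effect, so the share by title does not measure one. The sets held the larger share in 36 of the 40 genes, or 90% of them. Over all 13047 genes the medians were 59.6% and 17.5%, and 81.5% had the larger share by set, so a larger share by set was common to most genes. XBP1 stood at the end of this range, with 99.2% by set and 8.28% by title.

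XBP1 (ENSG00000100219, GRCh38.p14 chr22:28794560-28800569) had the largest difference between sets of all members. It was read at 64.3, 65.4 and 60.8 CPM in set 2/6/10, against 374, 321 and 317 CPM in set 1/5/9. It was read at 156, 147 and 173 CPM in set 4/8/12, against 310, 297 and 344 CPM in set 3/7/11. The libraries thus fell at 3 separate heights, with sets 1/5/9 and 3/7/11 overlapping each other at the top. The difference of mean log2 CPM was -2.40 for set 2/6/10 minus 1/5/9, a 5.29-fold lower level, and 0.774% of all genes were as low or lower. For set 4/8/12 minus 3/7/11 it was -0.998, a 2.00-fold lower level, with 1.17% of genes as low or lower. The libraries within a set differed far less, with an SD of log2 CPM of 0.0549 to 0.133 over the 4 sets. Tags from the 3' end do not separate the spliced from the unspliced XBP1 mRNA, so these levels are of both forms together.

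**Figure D3:**
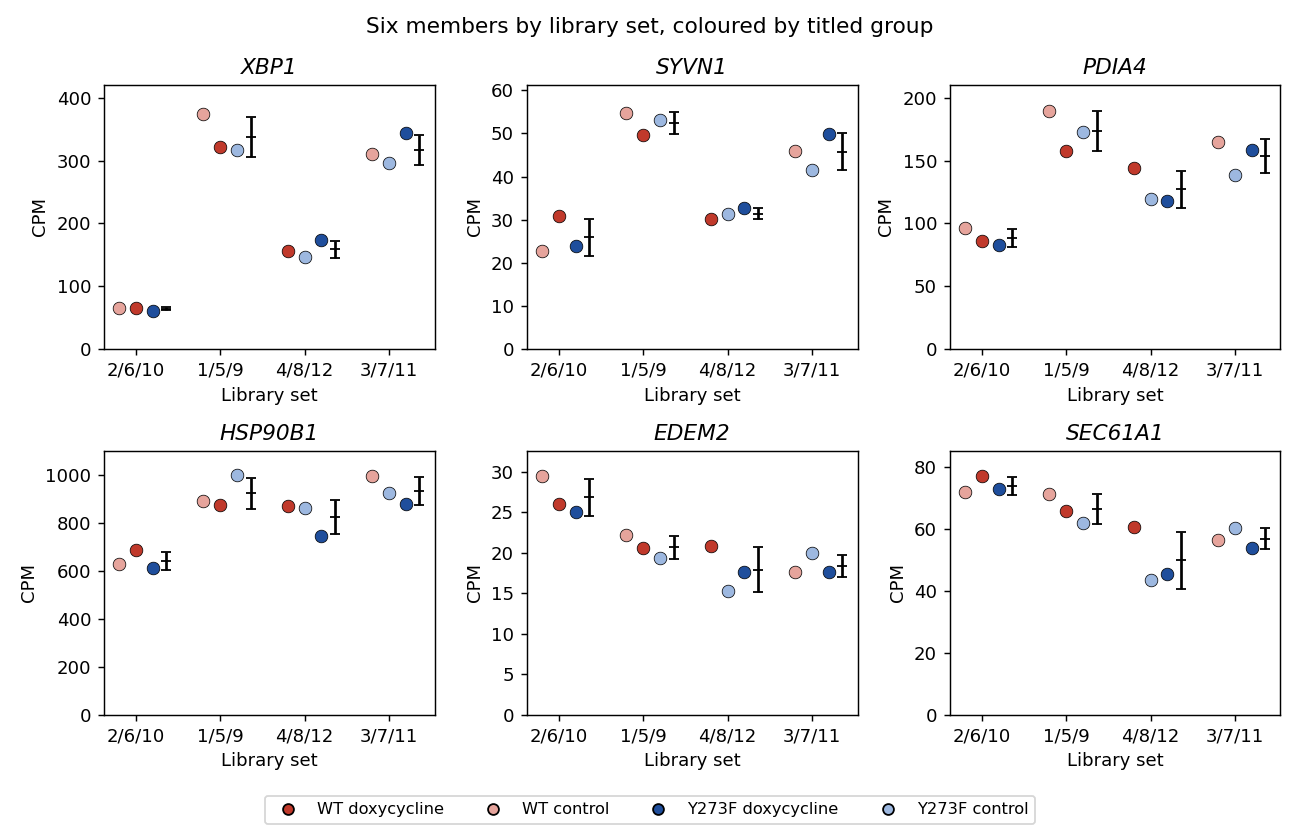
CPM (y axis, from 0) of XBP1, SYVN1, PDIA4, HSP90B1, EDEM2 and SEC61A1 in each library, by library set. Points are libraries coloured by title and black bars are the set mean with SD (n = 3). XBP1 lay at 60.8 to 65.4 CPM in set 2/6/10 and at 317 to 374 CPM in set 1/5/9, while EDEM2 and SEC61A1 were highest in set 2/6/10.

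Of the 3 sensors, ERN1 alone was lower without overlap in set 2/6/10 than in set 1/5/9. ERN1 had 12.8, 11.8 and 11.8 CPM in set 2/6/10, against 16.6, 13.1 and 16.0 CPM in set 1/5/9. The gap between the nearest libraries, 12.8 CPM from 57 counts and 13.1 CPM from 126 counts, was small. EIF2AK3 had 11.0, 13.8 and 12.2 CPM in set 2/6/10, against 14.1, 13.3 and 15.9 CPM in set 1/5/9, and these overlapped. Within set 4/8/12 alone it ran from 9.86 to 18.9 CPM. ATF6 lay between 42.7 and 62.4 CPM in all 12 libraries. It was the single member higher in set 3/7/11, at 55.8, 59.1 and 53.9 CPM, than in set 1/5/9, at 50.2, 52.5 and 51.7 CPM, a log2 difference of 0.13.

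Over all 40 genes, 22 were lower in each library of set 2/6/10 than in every library of set 1/5/9, which is 55% of them, where 27.6% of all genes were. Only 3 members, or 7.5%, were higher without overlap, where 27.7% of all genes were. The median log2 difference was -0.24, and -0.02 over all genes. For set 4/8/12 against 3/7/11, 12 members, or 30%, were lower without overlap, where 8.5% of all genes were, and 0 were higher, where 8.99% were. The median was -0.15 there (all genes 0.000957). Without WT doxycycline 1, which leaves 2 libraries against 3, 19 members were lower, and without Y273F doxycycline 3, 1 was higher. With 2 libraries against 3, sets overlap less often by construction, so the shares of all genes above do not apply to these counts. The comparisons of set 2/6/10 with 1/5/9 and of set 4/8/12 with 3/7/11 share no library. Of the 40 genes, 31, or 77.5%, had a negative difference in both, where 31.5% of all genes did. The members that were lower without overlap in both numbered 10, or 25%, where 4.6% of all genes were: XBP1, SYVN1, PDIA6, HSP90B1, HERPUD1, SSR2, P4HB, OS9, SEL1L and SSR1. In 30 of the 40 the difference for set 2/6/10 minus 1/5/9 was the more negative of the pair, which is 75%, where it was in 50.8% of all genes. The median of the difference between them was -0.13 (all genes -0.00985).

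**Figure D4:**
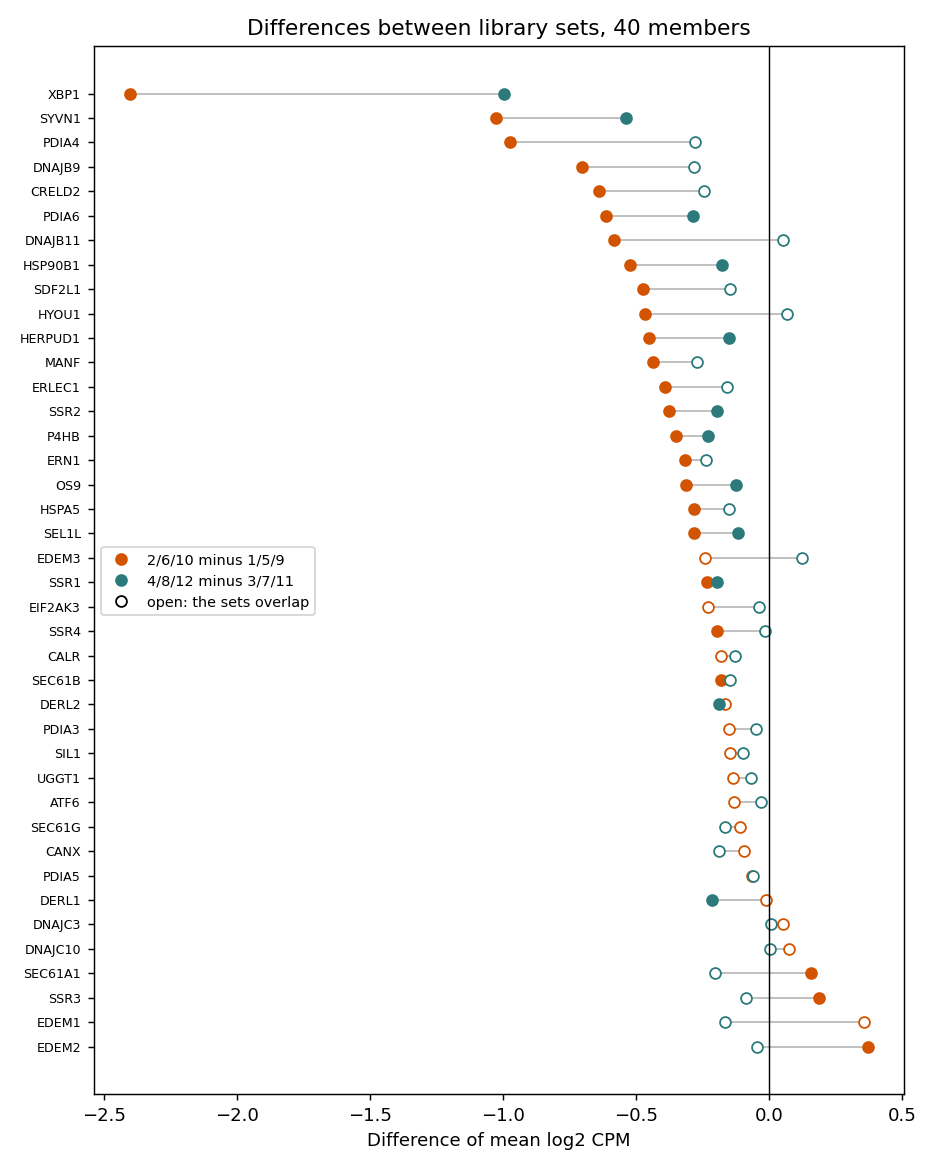
Difference of mean log2 CPM (x axis) for each of the 40 genes, for set 2/6/10 minus 1/5/9 and for set 4/8/12 minus 3/7/11. Filled points mark sets of 3 libraries that do not overlap and open points those that do. XBP1 lies at -2.40 and -0.998, and EDEM2 at the other end at 0.37 in the first comparison.

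Promoter sequences were looked at because ER stress genes are known for short elements near their start sites that ATF6, with the CCAAT factor NF-Y, and XBP1 bind. RefSeq windows on GRCh38.p14, 250 bases before to 50 after a start, were found for 38 of the 41 genes. PDIA3, DERL1 and DERL3 had no entry. On both strands, the ER stress response element (ERSE: CCAAT, then 9 bases of any kind, then CCACG) stood in 7 of the 38, or 18.4%, against 25 of 27305 genes, or 0.0916%, in the whole table. The form ERSE-II (ATTGG, 1 base of any kind, then CCACG) stood in 3, or 7.89%, against 0.0696% of all genes. The unfolded protein response element TGACGTGG (UPRE) stood in 4, DNAJC10, HYOU1, SSR3 and SSR4, or 10.5%, against 0.927% of all genes. Since these elements are known from ER stress genes, which the list holds, higher shares among members were fixed in advance and are a description. The 250 bases before the start are shown for XBP1, the member with the largest difference, for HSPA5, the classical reporter of this response, and for HYOU1, which holds both ERSE-II and UPRE. They are on the minus strand, 5′ to 3′, with the fixed letters of each element in capitals, at chr22:28800570-28800819, chr9:125241344-125241593 and chr11:119057206-119057455.
XBP1: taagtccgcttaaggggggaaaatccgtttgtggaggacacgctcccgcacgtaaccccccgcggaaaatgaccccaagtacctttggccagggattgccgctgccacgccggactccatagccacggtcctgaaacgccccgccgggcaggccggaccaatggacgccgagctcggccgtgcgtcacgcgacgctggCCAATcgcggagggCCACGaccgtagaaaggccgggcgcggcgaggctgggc
HSPA5: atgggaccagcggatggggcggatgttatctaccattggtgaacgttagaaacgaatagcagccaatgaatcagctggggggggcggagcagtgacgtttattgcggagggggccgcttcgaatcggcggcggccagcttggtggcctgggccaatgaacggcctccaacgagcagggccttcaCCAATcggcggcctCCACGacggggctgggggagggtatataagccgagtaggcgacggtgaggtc
HYOU1: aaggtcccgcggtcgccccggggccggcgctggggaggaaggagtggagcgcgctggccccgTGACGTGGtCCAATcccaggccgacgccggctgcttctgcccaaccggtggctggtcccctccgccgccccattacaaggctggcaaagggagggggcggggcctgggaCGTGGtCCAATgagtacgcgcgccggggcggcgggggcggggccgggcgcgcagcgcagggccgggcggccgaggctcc

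In XBP1 the ERSE began 52 bases before the start and in HSPA5 66 bases before it. In HYOU1 the first of the ERSE-II matches, read on the opposite strand, overlaps the UPRE. The elements of the other members are shown to compare their letters, with CCAAT or its complement ATTGG and CCACG or its complement CGTGG in capitals, as read on the gene's own strand.
HSP90B1: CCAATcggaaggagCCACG
HSP90B1, opposite strand: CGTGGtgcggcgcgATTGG
PDIA6: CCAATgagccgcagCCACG
CANX: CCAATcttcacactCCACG
CALR, opposite strand: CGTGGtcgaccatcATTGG
CRELD2, opposite strand: CGTGGcgaactcggATTGG
HERPUD1, ERSE-II: ATTGGgCCACG
SDF2L1, ERSE-II, opposite strand: CGTGGaCCAAT

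Of the 10 members with ERSE or ERSE-II, 8 were lower without overlap in set 2/6/10 than in set 1/5/9, with a median log2 difference of -0.47. The exceptions were CANX and CALR. Of the 28 matched and tested members without either, 14 were lower and 3 higher, with a median of -0.21. Over all genes tested, 27.6% were lower and 27.7% higher without overlap between these sets. For set 4/8/12 minus 3/7/11 the median was -0.16 with an element and -0.13 without. SYVN1, PDIA4 and DNAJB9, which followed XBP1 in the size of the difference, held none of these letter strings in their windows. A match describes letters only.

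Among the 10 luminal chaperones and BiP co-factors, 8, or 80%, were lower without overlap in set 2/6/10 than in set 1/5/9, where 27.6% of all genes were. None was higher, where 27.7% of all genes were, and the median log2 difference was -0.47. HSPA5 (ENSG00000044574), which encodes the chaperone BiP, had 608, 567 and 663 CPM in set 2/6/10, against 692, 785 and 758 CPM in set 1/5/9. HSP90B1, the ER form of HSP90, had 626, 685 and 612 CPM in set 2/6/10, against 892, 876 and 998 CPM in set 1/5/9. Neither gene overlapped between these sets. DNAJB11, a co-chaperone that delivers substrates to BiP, had 41.8, 40.5 and 37.5 CPM in set 2/6/10, against 58.9, 59.3 and 61.4 CPM in set 1/5/9. HYOU1, a nucleotide exchange factor of BiP, had 52.4, 51.9 and 52.5 CPM in set 2/6/10, against 70.5, 81.3 and 65.8 CPM in set 1/5/9. Both were lowest in set 2/6/10, since DNAJB11 had 58.4, 67.3 and 50.0 CPM and HYOU1 81.2, 71.3 and 57.5 CPM in set 4/8/12. DNAJB9, a co-chaperone that represses IRE1, had 13.7, 16.1 and 16.1 CPM in set 2/6/10, against 21.7, 26.9 and 26.8 CPM in set 1/5/9, a log2 difference of -0.70. The secreted CRELD2 had 34.2, 28.7 and 44.0 CPM in set 2/6/10, against 55.2, 58.7 and 50.6 CPM in set 1/5/9, a log2 difference of -0.64. SDF2L1, a partner of DNAJB11, and MANF, which stabilises BiP with its substrates, were the remaining members without overlap. DNAJC3, a BiP co-chaperone, and SIL1 overlapped.

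In set 4/8/12 against 3/7/11 a single gene of these 10 (10%), HSP90B1, was lower without overlap, where 8.5% of all genes were. It had 872, 860 and 744 CPM in set 4/8/12, against 993, 924 and 880 CPM in set 3/7/11, so the gap between the nearest libraries was small. HSPA5 had 747, 658 and 642 CPM in set 4/8/12, against 808, 730 and 732 CPM in set 3/7/11, and the sets overlapped. The median over the 10 genes was -0.15.

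The lectin cycle stayed within a narrow range. CALR (calreticulin) lay between 290 and 386 CPM, CANX (calnexin) between 590 and 798 CPM and UGGT1 between 57.0 and 71.9 CPM over all 12 libraries. None of the 3 was free of overlap in the comparison of set 2/6/10 with 1/5/9 or of set 4/8/12 with 3/7/11.

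The disulfide exchange genes were split. PDIA4, a BiP-associated isomerase, had 96.0, 85.8 and 82.6 CPM in set 2/6/10, against 189, 158 and 173 CPM in set 1/5/9. The log2 difference was -0.97, a 1.96-fold lower level. PDIA6, an isomerase that acts on client chains and on IRE1, had 415, 409 and 388 CPM in set 2/6/10, against 636, 588 and 631 CPM in set 1/5/9. P4HB, the isomerase PDI itself, had 586, 551 and 561 CPM in set 2/6/10, against 719, 724 and 722 CPM in set 1/5/9. All 3 were without overlap, and PDIA6 and P4HB were also lower in set 4/8/12 than in set 3/7/11, with log2 differences of -0.28 and -0.23. These are 3 of 6 genes, or 50%, where 27.6% of all genes were lower in set 2/6/10 than in set 1/5/9. For set 4/8/12 against 3/7/11 they are 2 of 6, or 33.3%, where 8.5% of all genes were lower. In contrast PDIA3, the isomerase that works with calnexin and calreticulin, overlapped at 64.3, 74.3 and 88.7 CPM in set 2/6/10 against 84.4, 88.6 and 77.5 CPM in set 1/5/9. PDIA5 and the ER reductase DNAJC10 overlapped as well.

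In the ERAD group, 5 of 10 tested genes, or 50%, were lower without overlap in set 2/6/10 than in set 1/5/9. A single gene, or 10%, was higher, and the shares of all genes were 27.6% lower and 27.7% higher. In set 4/8/12 against 3/7/11, 6 of the 10, or 60%, were lower without overlap, where 8.5% of all genes were. There 0 were higher, where 8.99% of all genes were. SYVN1, the ubiquitin ligase also called HRD1, had 22.7, 30.9 and 24.0 CPM in set 2/6/10, against 54.7, 49.7 and 53.1 CPM in set 1/5/9. It had 30.1, 31.2 and 32.8 CPM in set 4/8/12, against 45.9, 41.6 and 50.0 CPM in set 3/7/11. Both low sets lay below both high sets in every library, with log2 differences of -1.03 and -0.54. Over SYVN1, 68.8% of the reads lay on the opposite strand and were not counted for it; with both strands counted the second difference was -0.67. Its partner SEL1L had 105, 107 and 112 CPM in set 2/6/10, against 132, 125 and 136 CPM in set 1/5/9. HERPUD1, a membrane protein of the same complex, had 59.1, 52.0 and 49.3 CPM in set 2/6/10, against 77.1, 69.5 and 72.8 CPM in set 1/5/9. The ER lectins OS9 and ERLEC1, which read trimmed glycans, were the other members lower without overlap in set 2/6/10 than in set 1/5/9.

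The 3 EDEM genes, which act on the glycans of misfolded chains, did not all lie on one side. EDEM2 had 29.4, 26.0 and 25.0 CPM in set 2/6/10, against 22.1, 20.5 and 19.3 CPM in set 1/5/9, a log2 difference of 0.37 without overlap. Its values in set 2/6/10 were also above all those of set 4/8/12, at 20.9, 15.3 and 17.6 CPM, by 0.58. EDEM1 had 34.6, 32.4 and 23.2 CPM in set 2/6/10, against 22.5, 21.9 and 25.0 CPM in set 1/5/9, and overlapped. EDEM3 averaged 33.0 ± 5.04 CPM in set 2/6/10 and 39.0 ± 6.11 CPM in set 1/5/9 (SD, n = 3 each), on the lower side and with overlap. Of the derlins, DERL1 and DERL2 overlapped between sets 2/6/10 and 1/5/9. Both were lower without overlap in set 4/8/12, where DERL1 had 82.0, 91.2 and 90.9 CPM, than in set 3/7/11, where it had 93.3, 104 and 109 CPM.

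The translocation genes followed the sets in another order. SEC61A1, the pore-forming subunit, had 71.9, 77.2 and 72.9 CPM in set 2/6/10, against 71.5, 66.0 and 61.9 CPM in set 1/5/9, a log2 difference of 0.16. It had 60.6, 43.5 and 45.6 CPM in set 4/8/12, against 56.3, 60.5 and 53.9 CPM in set 3/7/11, and these overlapped. Between sets 2/6/10 and 1/5/9 the gap between the nearest SEC61A1 libraries, 71.9 and 71.5 CPM, was small. SSR3, the gamma subunit of the translocon-associated TRAP complex, had 393, 404 and 375 CPM in set 2/6/10, against 336, 331 and 361 CPM in set 1/5/9, a log2 difference of 0.19. In contrast the TRAP subunit SSR2 had 191, 169 and 187 CPM in set 2/6/10, against 241, 247 and 221 CPM in set 1/5/9. SSR1, SSR4 and SEC61B were lower without overlap as well, so the 7 genes held 4 lower and 2 higher. These are 57.1% and 28.6%, where 27.6% and 27.7% of all genes were, so the share higher was near that of all genes. The TRAP subunit SSR3 thus stood on another side than SSR1, SSR2 and SSR4.

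As a group, the translocation genes had levels of 0.142, 0.0388 and -0.00536 in set 2/6/10, against -0.184, -0.171 and -0.195 in set 4/8/12. The luminal chaperones had -0.210, -0.233 and -0.162 in set 2/6/10, against -0.00907, -0.0919 and -0.111 in set 4/8/12. The groups of genes were thus in opposite order between these low sets. Over the 40 genes, 8 were lower and 7 higher without overlap in set 2/6/10 than in set 4/8/12, or 20% and 17.5%, where 23.1% and 25% of all genes were. The lower ones were led by XBP1 at -1.32, DNAJB11 at -0.54, PDIA4 at -0.52, HYOU1 at -0.41 and HSP90B1 at -0.36. The higher ones were led by EDEM2 and SEC61A1, each at 0.58, SEC61G at 0.39, SSR3 at 0.38 and DNAJC3 at 0.27. The median over the 40 was 0.00296, with 20 negative and 20 positive values. Without Y273F doxycycline 1, 13 members were higher.

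**Figure D5:**
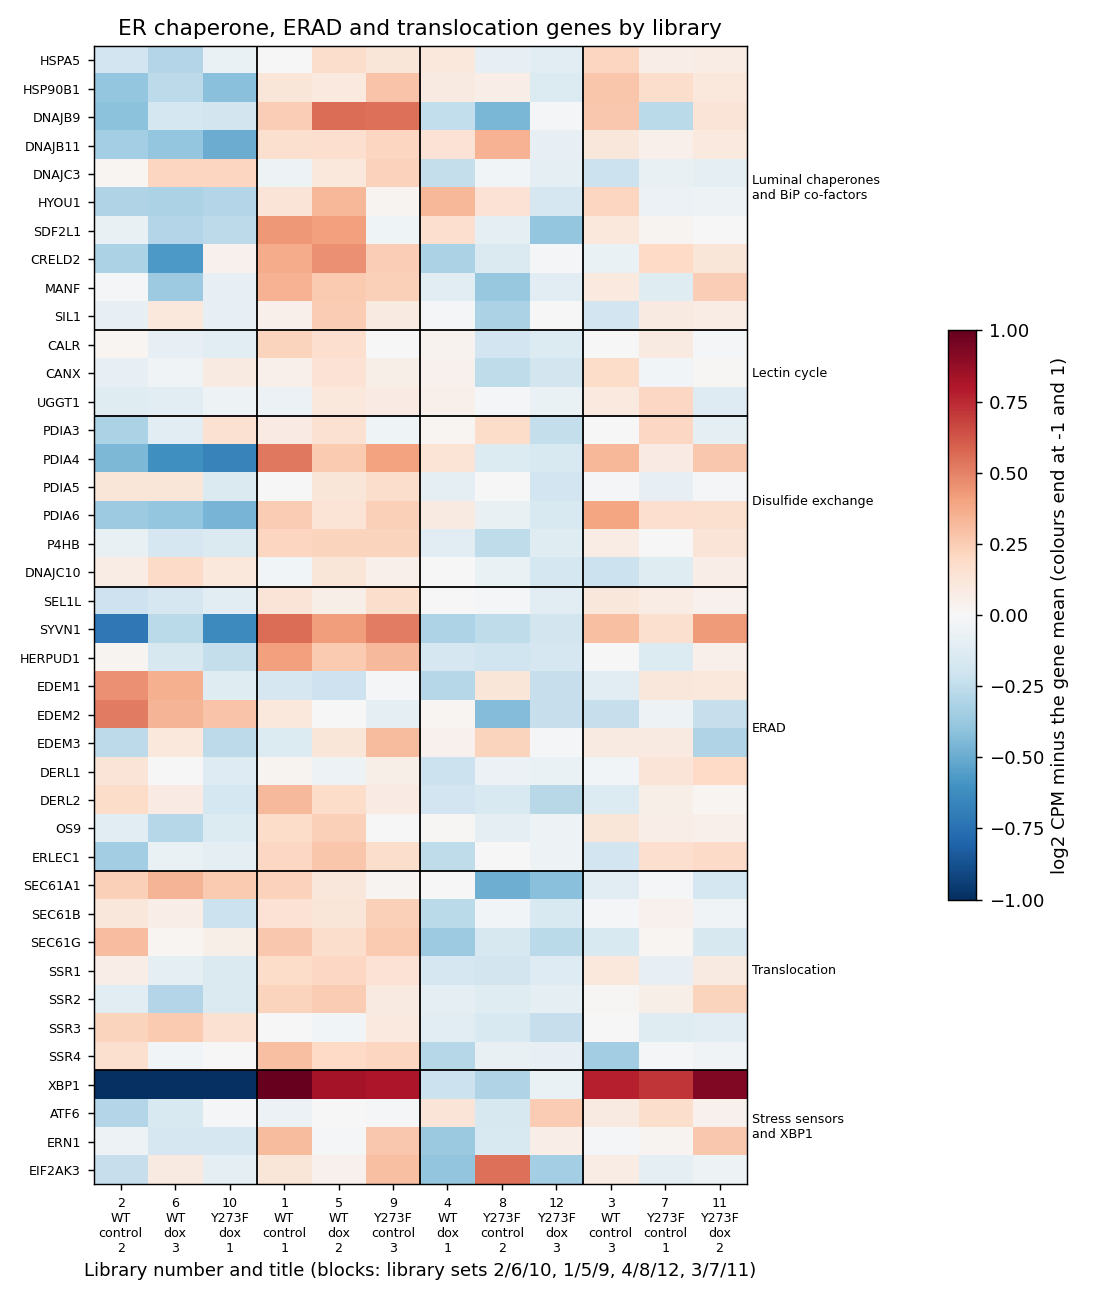
Log2 CPM minus the gene mean for the 40 tested genes (rows, by role) in the 12 libraries (columns, in blocks by library set, with number and title). Blue is lower and red higher than the gene mean, with colours ending at -1 and 1. XBP1, SYVN1, PDIA4 and most luminal chaperones are blue in set 2/6/10, where EDEM2, SEC61A1 and SSR3 are red.

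The high sets also differed from each other. In set 3/7/11, 12 members, or 30%, were lower without overlap than in set 1/5/9, where 9.99% of all genes were, and 1 was higher, ATF6, where 9.67% were. The median log2 difference was -0.14. Without Y273F control 3, 19 were lower and 2 higher, and without WT control 3, 3 were higher. Each of these counts sets 2 libraries against 3, so the shares of all genes above do not apply to them. All values for set 3/7/11 against 1/5/9 share their libraries with the comparisons above. SSR4, the delta subunit of TRAP, had the lowest difference among members without overlap, -0.37, with 145, 183 and 181 CPM in set 3/7/11, against 228, 212 and 214 CPM in set 1/5/9. HERPUD1 followed at -0.36, with 58.0, 52.9 and 60.3 CPM in set 3/7/11, and SEC61G, the gamma subunit of the channel, at -0.34, with 212, 239 and 211 CPM in set 3/7/11, against 285, 266 and 283 CPM in set 1/5/9. CRELD2 and SEC61A1 were at -0.27 and -0.22. XBP1 overlapped here.

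A further 94 tested genes of the same compartment, from signal peptidase, the oligosaccharyltransferase, the signal recognition particle, retrotranslocation and the stress response, gave 0 calls in the 4 titled comparisons. In set 2/6/10 against 1/5/9, 43 of them, or 45.7%, were lower without overlap and 17, or 18.1%, were higher, where 27.6% and 27.7% of all genes were, with a median log2 difference of -0.17. In set 4/8/12 against 3/7/11, 13, or 13.8%, were lower and 4, or 4.26%, higher, where 8.5% and 8.99% of all genes were, with a median of -0.06. The following genes were chosen after their values were seen. TMEM258, a subunit of the oligosaccharyltransferase, had 191, 161 and 185 CPM in set 2/6/10, against 387, 321 and 312 CPM in set 1/5/9. SEC11C, a catalytic subunit of signal peptidase, had 62.7, 62.3 and 49.3 CPM in set 2/6/10, against 96.4, 96.0 and 116 CPM in set 1/5/9. Both were lower in each library of set 2/6/10. TRAM1, a translocon partner, was on the other side, with 1175, 1134 and 1015 CPM in set 2/6/10 against 560, 535 and 564 CPM in set 1/5/9. STC2, a secreted glycoprotein induced through PERK and ATF4, was higher in both low sets. It had 59.1, 55.8 and 57.2 CPM in set 2/6/10, against 18.96, 19.3 and 16.3 CPM in set 1/5/9. It had 83.5, 49.1 and 43.3 CPM in set 4/8/12, against 32.7, 14.03 and 15.8 CPM in set 3/7/11. DDIT3, the stress factor CHOP, had 19.1, 18.2 and 16.8 CPM in set 2/6/10, against 9.54, 9.48 and 10.9 CPM in set 1/5/9.

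The summed levels of epithelial, secretory and matrix marker lists moved with the sets. The A549 epithelial list, with 8 of 10 genes tested, summed to 17094 to 20992 CPM in set 2/6/10 and 11802 to 15366 CPM in the other 9 libraries. Most of this sum was KRT18, ALDH1A1, AKR1B10 and KRT8, so it does not give the side of each member. EPCAM was lowest in Y273F doxycycline 1, at 4.65 CPM, and CDH1 in WT control 2, at 24.5 CPM, both libraries of set 2/6/10. Mitochondrial genes took 4.79% to 5.36% of the counts in set 2/6/10 and 3.52% to 4.18% in set 1/5/9, without overlap, and 4.21% to 6.43% in set 4/8/12 and 3.87% to 5.87% in set 3/7/11, with overlap. The mucous list (MUC5AC, MUC5B, AGR2, SPDEF and TFF3, all 5 tested) summed to 302 to 407 CPM in set 2/6/10 and 1910 to 2060 CPM in set 1/5/9. It summed to 705 to 897 CPM in set 4/8/12 and 839 to 1177 CPM in set 3/7/11. Most of this was AGR2, itself an ER disulfide isomerase, at 294 to 1906 CPM. The liver-type secretory list, with 2 of 5 genes tested, summed to 77.9 to 103 CPM in set 2/6/10 and 507 to 607 CPM in set 1/5/9. The fibroblast and smooth muscle list, with 4 of 9 genes tested, summed to 198 to 258 CPM in set 2/6/10 and 33.6 to 63.1 CPM in the other 9 libraries. Its COL1A1 had 13.3 to 197 CPM, while DCN, COL1A2 and COL3A1 stayed below 1 CPM. The part of these differences, of the mitochondrial share and of depth in the levels of the ER genes was not tested.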

How the data were processed

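RNA from A549 cells was made into QuantSeq FWD V2 libraries, a stranded 3' tag method, per the labels' protocols. Reads were aligned with STAR to GRCh38.p14, per the submitters' processing notes; the sources used here do not give its version, the annotation or the treatment of molecular identifiers. Whole-number gene counts were deposited in a merged table and per library by strand. All 40605 merged rows equal a transcript-strand row. Reads assigned to no gene, 35.5% to 43.2% of a library, stayed out of totals. A 3' tag count is not divided by transcript length, and levels of different genes are not compared here. Floors in CPM cover counting error only, since amplification copies may remain.

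Groups came from the titles and library sets from the library numbers in the labels. Genes were filtered (filterByExpr, minimum count 10), scaled with TMM factors and tested by the quasi-likelihood method of edgeR 4.0.16 (R 4.3.3) in one model of the 4 titled groups, with Benjamini-Hochberg adjustment over 13047 genes at 0.05. The p-values measure the spread between these libraries. Log2 CPM used a prior count of 2. A gene was counted as lower or higher between sets when their 3 libraries each did not overlap. Most members are given in CPM, and the others by whether the sets overlapped. Fold changes are named for the 3 members with the smallest p in a titled comparison and for XBP1, added after its values were seen, and set differences for up to 5 highest and 5 lowest members without overlap at a mean of at least 5 CPM. The members, sets and lists were chosen with earlier results of these data known. Alternatives were other scaling factors, other filters, DESeq2 1.42.0, limma-voom (limma 3.58.1), unstranded counts, another prior count, a replicate block, a term for library set, and leaving out libraries. The procedure was tested on simulated data without library sets, so that test does not show how small a change the titled comparisons could call. Same-numbered replicates did not consistently deviate together (correlations of -0.685 to 0.575 over 18 pairs), so replicate numbers were not treated as pairs. Libraries of a set had correlations of 0.0370 to 0.809 over 12 pairs. Since the sets were proposed with these data known, this is no independent evidence for them. WT control 1 and Y273F doxycycline 2, which share neither set nor replicate number, had a correlation of 0.528.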

Additional observations from a re-analysis of the deposited data

How the results depend on the processing

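No member was called in any titled comparison under any alternative run, including DESeq2, limma-voom, unstranded counts, a term for library set and fits without libraries 2, 6 and 10. With the replicate number as a replicate block, 0 members were called and the medians were -0.0586 for the WT line, -0.0932 for the Y273F line, 0.0486 for their difference and -0.000569 for the controls. Leaving out each library in turn called 0 members; the medians ran from -0.121 to 0.00744, -0.155 to -0.0329, -0.0318 to 0.145 and -0.0771 to 0.0535.

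Between library sets no difference of a named member turned direction. Without a filter on low counts, which adds DERL3, the median was -0.274 for set 2/6/10 minus 1/5/9, -0.0351 for 2/6/10 minus 4/8/12 and -0.164 for the difference between the shifts. Without TMM factors it was -0.156 for 3/7/11 minus 1/5/9 and 0.0209 for 2/6/10 minus 4/8/12. With unstranded counts it was 0.0289 for 2/6/10 minus 4/8/12, with 5 members lower without overlap, and SYVN1 was at -0.671 for 4/8/12 minus 3/7/11. The cause of these shifts was not tested.

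Leaving out each library in turn, medians ran from -0.263 to -0.239 for 2/6/10 minus 1/5/9, -0.154 to -0.127 for 4/8/12 minus 3/7/11, -0.155 to -0.111 for 3/7/11 minus 1/5/9, -0.0187 to 0.0350 for 2/6/10 minus 4/8/12 and -0.185 to -0.103 for the difference between the shifts. In the same order, members lower without overlap ran from 22 to 26, 12 to 19, 12 to 19 and 8 to 11, and members higher from 2 to 4, 0 to 1, 1 to 3 and 7 to 13. With 2 libraries against 3, sets overlap less often by construction. At 2.78e+06 counts or more per library, DERL3 could not be compared.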
